A study of Mus musculus with 22 samples.

Results

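The genes described here are the nuclear-encoded parts of mitochondrial respiratory complexes I, III and IV, followed on 22 one-colour mouse arrays. They were taken as every gene probe whose name on the array begins with Ndufa, Ndufb, Ndufc, Ndufs or Ndufv followed by a number alone, with Uqcr, or with Cox4 to Cox8. This gave 85 probes for 63 genes, of 28104 genes on the array. By background knowledge, 54 of the 63 are ubiquitous subunits: 35 of complex I, 8 of complex III, 10 of complex IV, and Ndufa4, which was named for complex I and is now placed in complex IV. A further 7 are tissue-type isoforms of complex IV (Cox4i2, Cox6a2, Cox6b2, Cox7a1, Cox7b2, Cox8b and Cox8c). The other 2 were read apart: Cox7a2l, a factor that joins complexes III and IV into supercomplexes, and Cox4nb, a neighbour of Cox4i1 on the chromosome that is now called Emc8 and is no subunit.

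The study followed mouse primordial germ cells (PGCs), the embryonic precursors of eggs and sperm, as they became pluripotent embryonic germ cells (EGCs) in culture, and placed beside them chemical additions on day 2 and forced germ-cell genes in embryonic stem cells (ESCs). Each group was 1 array, so a difference between 2 groups is a difference between 2 arrays and has no test. PGCs came from embryos at E11.5, and the course held uncultured PGCs, day 1 with basic fibroblast growth factor (bFGF), days 2, 3 and 6 with bFGF, 2i and A83-01, day 10 with no addition named, and an EGC line. 2i stands for PD325901, an inhibitor of MEK given at 1 uM, with CHIR99021, an inhibitor of GSK3 given at 3 uM. A83-01, given at 250 nM, inhibits the TGF-beta receptor ALK5 and its relatives. Other day 2 cultures held bFGF alone, or bFGF with the MEK inhibitor, the GSK inhibitor, A83-01, 4-hydroxytamoxifen (4OHT, 100 nM, given for AKT activation), or 2i, A83-01 and 4OHT together. The labels used here do not give the genotype behind the AKT activation. The PGC, culture, EGC and ESC arrays held cells positive for SSEA-1, a surface sugar of PGCs and pluripotent cells. The remaining 8 arrays came from EBRTcH3, an ESC line: the parental cells, GFP-positive cells forced to express Prdm14, Vasa, Nanos2, Nanos3 or Dnd, and GFP-positive cells on day 2 of an EF1a-driven GFP or Blimp-1 construct.

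The respiratory chain lies in the inner mitochondrial membrane. Complex I takes electrons from NADH, complex III passes them from ubiquinol to cytochrome c, and complex IV hands them to oxygen. Each of the 3 moves protons as it does so, and complex V, the ATP synthase, uses the proton gradient. Their core catalytic subunits are partly encoded by mitochondrial DNA, and all the genes read here are nuclear. Most subunits have 1 form in all tissues, whereas several small subunits of complex IV have a second form typical of heart and skeletal muscle (Cox6a2, Cox7a1, Cox8b), testis (Cox6b2, Cox7b2, Cox8c) or lung and low oxygen (Cox4i2).

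Promoters of respiratory chain genes are known for short motifs of NRF1, of ETS factors such as GABP, and of YY1. RefSeq windows from 250 bases before to 50 bases after a gene's start (build GRCm38.p6) were matched by symbol for 45 of the 54 ubiquitous genes, which have 47 windows. The NRF1 core GCGCATGCG, sought on both strands, was in 5 of the 47 windows (10.6%), beside 1.75% of all 32851 windows. The ETS core CCGGAAG was in 9 (19.1%), beside 8.86% of all windows, and the YY1 core AAGATGGCG was in 5 (10.6%), beside 1.40%. Cox6a1 and Uqcr11 held both an NRF1 and an ETS core, and 17 windows (36.2%) held any of the 3, beside 11.4% of all windows. The 5 YY1 cores, in Ndufa9, Ndufc1, Ndufs4, Ndufs6 and Ndufs7, all began between 23 and 36 bases after the start. Matches of different motifs did not overlap in the members' windows, a match is a description and not a site, and no test was made. The 120 bases before the start are shown, 5′ to 3′ along each gene, for 3 complex I and 3 other subunits whose matches fall there, with the matched motif in capitals. They lie on GRCm38.p6 as follows: Cox6a1 at chr5:115348959-115349078 (minus strand), Uqcr11 at chr10:80406822-80406941 (minus strand), Uqcrh at chr4:116075071-116075190 (minus strand), Ndufs3 at chr2:90904722-90904841 (minus strand), Ndufa11 at chr17:56717642-56717761 (plus strand) and Ndufa8 at chr2:36049339-36049458 (minus strand). Ndufa11 carries the NRF1 core on both strands, overlapping itself. The NRF1 core of Uqcr11 begins at -5 and runs past the start, and that of Cox6a1 begins at -162, before the stretch. Only the ETS cores of these genes are therefore in capitals.
Cox6a1 promoter: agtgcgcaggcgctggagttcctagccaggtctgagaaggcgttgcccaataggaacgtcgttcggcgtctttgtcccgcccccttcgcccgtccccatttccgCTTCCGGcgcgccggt
Uqcr11 promoter: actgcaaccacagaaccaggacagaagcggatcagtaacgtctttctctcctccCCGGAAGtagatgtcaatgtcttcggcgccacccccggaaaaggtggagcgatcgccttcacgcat
Uqcrh promoter: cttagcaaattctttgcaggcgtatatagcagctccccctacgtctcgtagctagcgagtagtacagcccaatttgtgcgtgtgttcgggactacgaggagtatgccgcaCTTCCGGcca
Ndufs3 promoter: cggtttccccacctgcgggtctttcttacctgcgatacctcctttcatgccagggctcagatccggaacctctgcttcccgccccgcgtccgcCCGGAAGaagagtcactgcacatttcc
Ndufa11 promoter: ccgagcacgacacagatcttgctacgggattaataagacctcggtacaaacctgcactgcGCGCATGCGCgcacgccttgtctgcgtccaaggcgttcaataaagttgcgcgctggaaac
Ndufa8 promoter: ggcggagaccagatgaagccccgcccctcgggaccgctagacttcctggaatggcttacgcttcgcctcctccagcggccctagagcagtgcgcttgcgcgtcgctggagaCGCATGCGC

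The second set is shown because 3 tissue-type isoforms and their ubiquitous counterparts behaved differently on the arrays, and because Ndufa10 ran against the other complex I genes in several comparisons. Here the capitals mark CG dinucleotides. Over the full windows the ubiquitous members had a median of 19 CG dinucleotides (5 to 39), the 4 matched isoforms had 8.5 (2 to 10), and all windows had 7. Of the 4 isoform windows 0 held any of the 3 motifs. In the 120 bases shown, Cox7a1, the muscle form, had 4 CG dinucleotides and Cox7a2 had 10. Cox8b, the muscle form, had 1 and Cox8a had 9, whereas Cox7b2, the testis form, had 7 and Cox7b had 3. Ndufa10 had 14. The positions are Cox7a1 at chr7:30184051-30184170 (plus strand), Cox7a2 at chr9:79759854-79759973 (minus strand), Cox7b2 at chr5:71548206-71548325 (minus strand), Cox7b at chrX:106015580-106015699 (plus strand), Cox8b at chr7:140900447-140900566 (minus strand), Cox8a at chr19:7217617-7217736 (minus strand) and Ndufa10 at chr1:92473759-92473878 (minus strand).
Cox7a1 promoter: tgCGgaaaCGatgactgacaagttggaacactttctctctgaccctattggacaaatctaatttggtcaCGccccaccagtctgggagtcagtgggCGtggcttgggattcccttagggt
Cox7a2 promoter: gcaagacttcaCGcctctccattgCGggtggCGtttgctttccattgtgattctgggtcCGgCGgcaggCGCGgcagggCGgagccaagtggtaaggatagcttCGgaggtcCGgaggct
Cox7b2 promoter: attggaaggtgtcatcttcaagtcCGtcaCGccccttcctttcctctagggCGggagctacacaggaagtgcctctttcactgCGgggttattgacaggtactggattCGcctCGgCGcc
Cox7b promoter: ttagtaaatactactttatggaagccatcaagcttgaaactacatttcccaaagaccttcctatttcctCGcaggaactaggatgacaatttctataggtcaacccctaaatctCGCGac
Cox8b promoter: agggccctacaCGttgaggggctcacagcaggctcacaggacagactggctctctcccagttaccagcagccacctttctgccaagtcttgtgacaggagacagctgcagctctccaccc
Cox8a promoter: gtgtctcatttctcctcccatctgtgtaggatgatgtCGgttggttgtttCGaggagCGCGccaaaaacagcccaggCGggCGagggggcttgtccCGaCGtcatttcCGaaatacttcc
Ndufa10 promoter: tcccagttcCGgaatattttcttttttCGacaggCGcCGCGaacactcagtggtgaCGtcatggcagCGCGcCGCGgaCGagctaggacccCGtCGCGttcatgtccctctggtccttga

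All 54 ubiquitous members were well above background on all 22 arrays. Levels are given as log2 of the processed intensity over the array's own 75th percentile, so 0 is the 75th percentile and every step of 1 is a doubling. The median of the 54 members was 6.50 in PGCs, 5.25 on day 1, 5.39 on day 2, 5.54 on day 3, 5.54 on day 6, 6.11 on day 10, 6.10 in EGCs and 5.46 in ESCs. It was 5.31 on day 2 with bFGF alone, 5.47 with the MEK inhibitor, 5.73 with the GSK inhibitor, 5.43 with A83-01, 6.33 with 4OHT and 7.06 with 2i, A83-01 and 4OHT. On the EBRTcH3 arrays it was 6.67 in parental cells, 5.83 with Prdm14, 6.27 with Vasa, 6.15 with Nanos2, 5.78 with Nanos3, 6.18 with Dnd, 5.87 with GFP and 6.24 with Blimp-1. The lowest was day 1 and the highest was the 2i, A83-01 and 4OHT array, 1.81 apart. After quantile normalization, which gives every array the same distribution, the same medians spanned 0.58, from 5.67 with Nanos2 to 6.24 with 2i, A83-01 and 4OHT. The levels of all 3 complexes have the same 75th percentile subtracted, so part of their shared movement is built in. The median of complex III minus that of complex I ran from 0.23 with 4OHT to 1.25 with Blimp-1, with an SD of 0.23 over the 22 arrays. That of complex IV minus complex I ran from 0.97 in PGCs to 1.64 with Blimp-1, with an SD of 0.16.

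**Figure D1:**
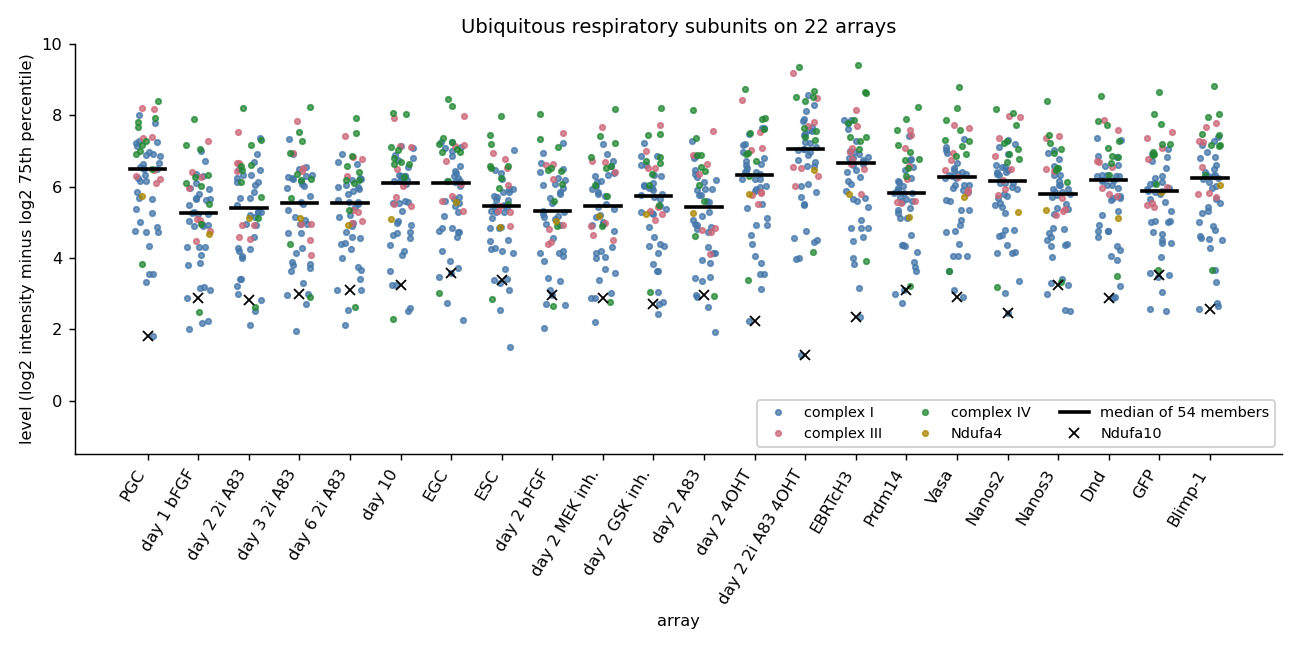
Levels of the 54 ubiquitous members on each of the 22 arrays (log2 of intensity over the array's 75th percentile), 1 point per gene, coloured by complex, with a black bar at the median. The medians run from 5.25 on day 1 to 7.06 with 2i, A83-01 and 4OHT.

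The members' median moved with the brightness of the array. The 75th percentile ran from an intensity of 120 on the 2i, A83-01 and 4OHT array to 750 on the ESC array, a ratio of 6.24, while the raw median intensity of the members ran from 14726 with Blimp-1 to 34886 on day 6, a ratio of 2.37. Over the 22 arrays the median level correlated with log2 of the 75th percentile at r = -0.94, and at r = -0.91 without the 2 arrays farthest from the median brightness. The points share the 75th percentile, which is subtracted from the level, so the value is a description with no p. With quantile normalization r was -0.44, or -0.30 without those 2 arrays. Of the 54 members, 53 had r below 0. Other abundant complexes moved alike, with r = -0.94 for complex V, -0.94 for the cytosolic ribosome, -0.88 for the mitochondrial ribosome and -0.82 for the proteasome. For this reason the members' median is given beside that of all genes in each comparison, with the quantile-normalized split of members above and below 0. The part of brightness in the differences below was not tested.

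**Figure D2:**
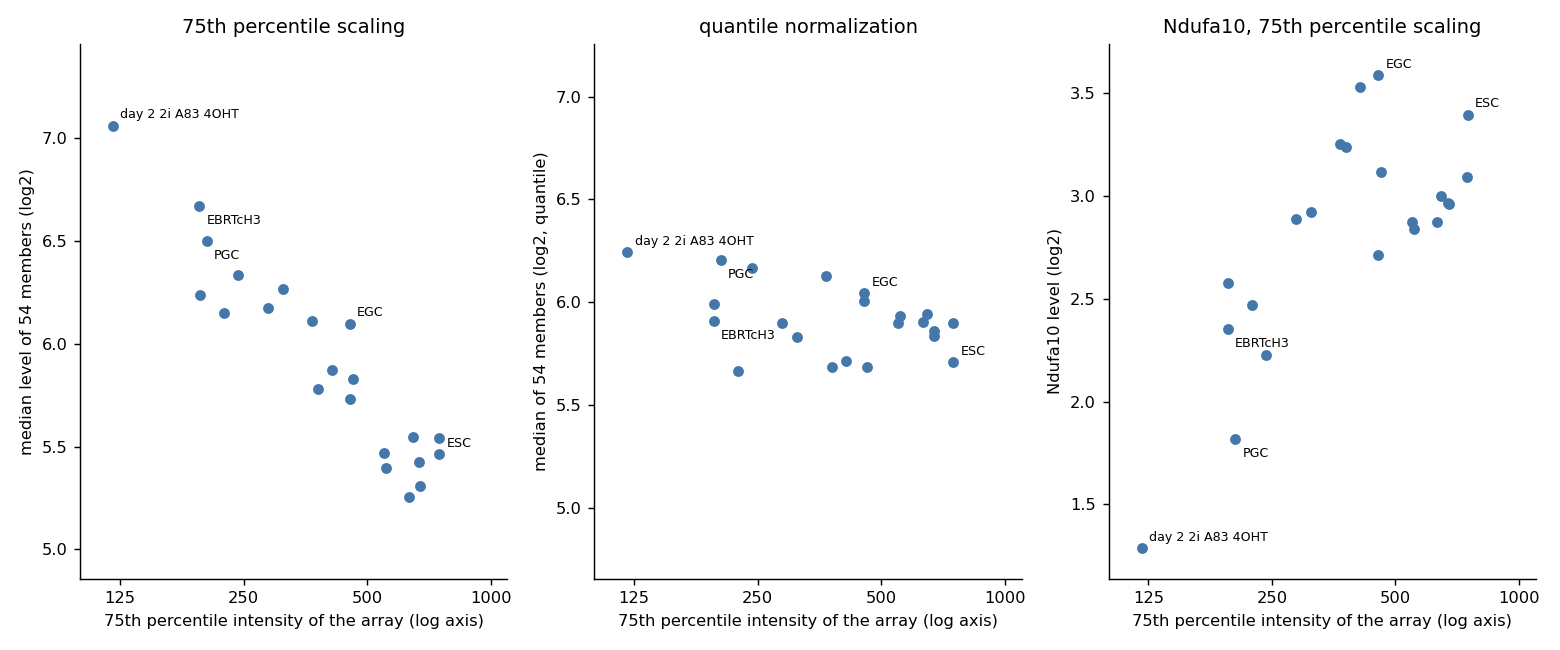
Median level of the 54 ubiquitous members (log2) against each array's 75th percentile intensity on a log axis, 1 point per array, with 75th percentile scaling (left) and quantile normalization (middle), and the level of Ndufa10 on the former scale (right). With the first, dimmer arrays have higher medians (r = -0.94 over 22 arrays), and with the second the spread is smaller (r = -0.44), while Ndufa10 is higher on brighter arrays (r = 0.74).

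The arrays lay on 10 slides by the numbers in the file headers, and between 44.3% and 64.7% of their gene probes were well above background. Slide 2 held the day 1, day 2, day 10 and day 2 bFGF arrays, slide 3 days 3 and 6, slide 6 the MEK inhibitor, GSK inhibitor and A83-01 arrays, and slide 7 both 4OHT arrays, whereas the PGC, EGC and ESC arrays each had a slide of their own. The pluripotency markers were well above background on all 22 arrays (5 of 5 genes measured). All 8 germ cell markers were so on every array, ESCs and EGCs included, except with 2i, A83-01 and 4OHT, where 7 were. The summed level of 9 fibroblast markers was 2.92 (log2) in PGCs, 6.75 on day 1, 8.38 on day 2, 7.28 on day 3, 6.36 on day 6, 5.80 on day 10, 2.74 in EGCs and 3.76 in ESCs. That of 7 blood markers was 5.59 in PGCs, with 4 of 7 well above background, and -3.57 on day 1, with 0 of 7. It was 1.61 on day 10, 2.45 in EGCs and 0.98 in ESCs. The part of either list in the step from PGCs to day 1 was not tested. Fewer cells of a type and less RNA per cell cannot be told apart in such samples. As nothing in the labels says that the samples came from separate cultures or animals, the p-values below measure only the spread between these arrays.

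The step from uncultured PGCs to day 1 held the lowest differences of the course. The median member was lower on day 1 by -1.21 (log2), beside -0.53 for all genes tested, and 53 of 54 members were lower. At least 2-fold lower were 34 members, where 34.2% of all genes were, and 1 member was at least 2-fold higher, where 16.4% of all genes were. In complex III, Uqcrh, the hinge protein that holds cytochrome c1, had a level of 8.16 in PGCs and 6.41 on day 1, and Uqcrfs1, the Rieske iron-sulfur protein, had 6.21 and 4.48. Their differences of -1.75 and -1.74 were the lowest of the 54. In complex I, Ndufb4, a membrane-arm subunit, went from 6.90 to 5.22, a difference of -1.68. At the other end, Cox6a1, the ubiquitous form of subunit 6a of complex IV, differed by -0.49, and Ndufa8, a subunit on the intermembrane-space side of complex I, by -0.42. Ndufa10 alone was higher, at 1.82 in PGCs and 2.88 on day 1, a difference of 1.06.

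By complex, the medians of this step were -1.16 for complex I, -1.37 for complex III and -1.09 for complex IV. Neighbouring lists lay in the same range: complex V at -1.39 with 16 of 16 genes lower, complex II at -1.14, the assembly factors of complexes I, III and IV at -1.10 with 36 of 37 lower, the cytosolic ribosome at -1.47 and the proteasome at -1.14. The citric acid cycle was at -0.53 and glycolysis at -0.51, both near all genes. With quantile normalization the members' median was -0.28, beside -0.27 for genes well above background on both arrays, and 35 members were lower and 19 higher. The PGC array had a 75th percentile of 203 and the day 1 array of 631, and PGC and slide 1 cannot be told apart.

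From day 1 to day 2, on the same slide, the members' median differed by 0.23, beside 0.02 for all genes, with 45 members higher and 9 lower (36 and 18 after quantile normalization). No member was 2-fold apart, where 9.03% of all genes were, in either direction. The highest differences were in complex I: Ndufv3, an accessory subunit of the NADH-oxidizing module (2.17 on day 1 and 2.99 on day 2, a difference of 0.82), Ndufa1 (0.59) and Ndufb10 (0.54). The lowest were 3 complex III genes, Uqcrb, which lies near the quinone site (-0.18), and the core proteins Uqcrc2 (-0.15) and Uqcrc1 (-0.14).

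Between days 2 and 3 the members differed by a median of 0.01, beside 0.05 for all genes, and 0 of 54 were 2-fold apart, where 9.63% of all genes were. The split was 30 higher and 24 lower, or 17 and 37 after quantile normalization. Cox7c, a small subunit of complex IV, was lowest (5.13 and 4.40, a difference of -0.73), with Uqcrb at -0.49 and Cox7a2 at -0.41. Cox8a was highest at 0.49, before Uqcrq at 0.32 and Ndufv2, a core iron-sulfur subunit of the NADH module, at 0.31.

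Between days 3 and 6, on 1 slide, the median was -0.04, beside 0.04 for all genes, with 25 members higher and 29 lower (24 and 30 after quantile normalization). Of the 54 members 0 were 2-fold apart, where 19.7% of all genes were. Cox7c and Uqcrb, the lowest of the step before, were now the highest: Cox7c went from 4.40 to 5.34 (0.94) and Uqcrb from 4.09 to 5.02 (0.93), with Ndufc2 next, from 4.96 to 5.57 (0.61). Cox4i1, the regulatory subunit 4 of complex IV, was lowest (7.53 and 6.87, a difference of -0.66), with Ndufb2 at -0.46 and Ndufa2 at -0.44.

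Between days 6 and 10 the median was 0.34, beside 0.18 for all genes, with 51 members higher and 3 lower, or 28 and 26 after quantile normalization. No member was 2-fold apart (0 of 54, where 17.1% of all genes were). Cox7b (6.09 and 7.03, a difference of 0.94), Cox7c (0.92) and Ndufb4 (0.77) were highest, and Cox6b1, which joins the partners of the complex IV dimer, was lowest at -0.33, before Ndufa12 (-0.07) and Ndufb9 (-0.01). Day 10 could be set against day 2 on 1 slide, where the median was 0.37, beside 0.23 for all genes, with 41 higher and 13 lower. There, 3 members were at least 2-fold higher, where 18% of all genes were: Cox7b (5.71 and 7.03, 1.32), Cox7c (5.13 and 6.27, 1.14) and Uqcrc1 (4.94 and 6.03, 1.09). Ndufa2 (-0.40), Cox6b1 (-0.33) and Ndufa13 (-0.28) were lowest. After quantile normalization this median was -0.08, with 23 members higher and 31 lower.

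From day 10 to the EGC line the median was 0.15, beside 0.04 for all genes, with 41 members higher and 13 lower (32 and 22 after quantile normalization). Again 0 of 54 were 2-fold apart, where 12.1% of all genes were. Cox6b1 was highest (2.30 and 3.03, a difference of 0.73), then Cox6c (0.56) and Ndufa4 (0.47), all of complex IV. Ndufb5 (-0.27) and Ndufa2 (-0.16) were among the lowest.

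A slope on log2 of the day plus 1 over the 6 arrays from PGC to day 10 was tested with limma. The median slope of the members was -0.12 per unit, beside -0.04 for all genes, with 8 of 54 above 0. No member of the 61 tested passed an adjusted p of 0.05, and 0 of 19152 genes did (0%), though 2418 genes had an unadjusted p under 0.05. Ndufa10 was the 1 member among them, with a slope of 0.36 ± 0.15 (SE) and an adjusted p of 0.39 by limma with Benjamini-Hochberg adjustment. Ndufa6 (-0.34) and Cox6b1 (-0.33) had the lowest slopes of the ubiquitous members. The members' median slope turned to 0.18 without the PGC array and to 0.18 with slide as a block, and was -0.29 without the day 10 array.

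The EGC line was set against the ESC line, both SSEA-1-positive. Of the 54 members 53 were higher in EGCs, with a median of 0.48 beside 0.14 for all genes, or 42 higher and 11 lower after quantile normalization, with a median of 0.14. At least 2-fold higher were 6 members, where 11.9% of all genes were. They were Ndufa1, a small subunit needed for complex I assembly (5.43 in ESCs and higher in EGCs by 1.57), Ndufb11 (5.86 and 7.13 in that order, 1.27), Cox7b (5.96 and 7.21, 1.25), Ndufb4 (5.48 and 6.59, 1.11), Uqcrq (6.93 and 7.99, 1.06) and Ndufb8 (6.21 and 7.26, 1.05). Ndufs1, the largest iron-sulfur subunit of complex I, was the 1 member that was lower (-0.14), and Cox4i1 (0.08) was also among the lowest. Complex V stood at 0.55, with 16 of 16 genes higher, and the regulators of mitochondrial biogenesis at 0.05, with 8 of 15 higher. EGC and ESC each have 1 array on a slide of their own, so line and slide cannot be told apart.

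The 3 members with the highest differences between EGCs and ESCs, Ndufa1, Ndufb11 and Cox7b, are the only 3 of the 54 on the X chromosome, which was noticed after the values were seen. Over genes well above background on both arrays, 553 X-linked genes had a median difference of 0.75 and 14820 autosomal genes of 0.10, and 35.8% of the former and 9.41% of the latter were at least 2-fold higher in EGCs. Quantile normalization gave 0.62 and -0.04. Within slide 2, day 10 minus day 2 gave 0.79 for the X-linked genes and 0.18 for the autosomal genes, and the 3 members had 1.32 (Cox7b), 0.91 (Ndufa1) and 0.64 (Ndufb11). Relative to the median of the 54 members, Ndufa1 was at -0.01 on day 1, 0.44 on day 2, 0.52 on day 3, 0.45 on day 6, 0.64 on day 10, 0.90 in EGCs and -0.03 in ESCs. In the same order of arrays Cox7b was at 0.25, 0.32, 0.13, 0.55, 0.92, 1.11 and 0.49. Ndufb11 was at 0.55, 0.84, 0.75, 0.70, 0.76, 1.03 and 0.40, so its day 10 value lay below that of day 2. In PGCs Ndufa1, Cox7b and Ndufb11 were at -0.33, 0.42 and 0.75. Over the 22 arrays all 3 were highest in EGCs by this measure. The Y-linked Ddx3y and Eif2s3y had levels of -7.64 and -7.57 in EGCs, not well above background, and -3.66 and -3.34 in ESCs, while Xist, the RNA of the silenced X, was at -2.86 in EGCs and -7.10 in ESCs, the latter not well above background. Within slide 2, Ddx3y was at -0.42 on day 2 and -2.24 on day 10, and Eif2s3y at 0.97 and -0.94. Xist was at -3.01 and -3.14 on the same arrays. The samples thus differed in their Y-linked genes as well. The part of the X chromosome as a whole, or of the sex of the sampled cells, in the differences of Ndufa1, Ndufb11 and Cox7b was not tested.

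**Figure D3:**
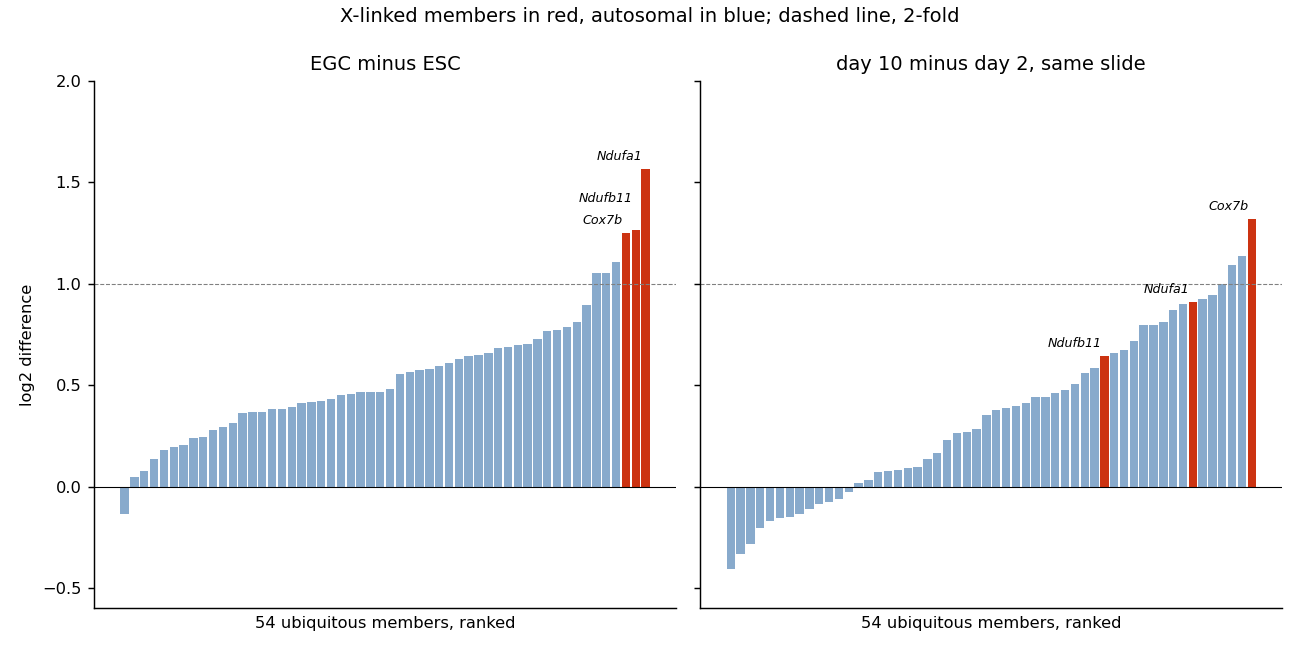
Log2 differences of the 54 ubiquitous members, ranked, for EGC minus ESC and for day 10 minus day 2 on 1 slide, with the 3 X-linked members in red and a dashed line at 2-fold. In the first panel Ndufa1 (1.57), Ndufb11 (1.27) and Cox7b (1.25) have the 3 highest values, and in the second Cox7b (1.32) is highest.

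PGCs were tested against the mean of 3 pluripotent lines (EGC, ESC and parental EBRTcH3) by limma, in which only the lines give a residual spread. The members' median was higher in PGCs by 0.52, beside 0.12 for all genes, with 47 of 54 higher, but no member of the 61 tested passed by limma and neither did any of 19034 genes (0%), while 1879 genes and 0 members had an unadjusted p under 0.05. Ndufb2 differed most among the ubiquitous members at 1.05 ± 0.76 (SE) and Ndufa10 was lowest at -1.29 ± 0.83. Among the isoforms Cox7a1 was higher in PGCs by 1.27 ± 0.79, with an adjusted p of 0.71 by limma. The members' median ran from 0.23 to 0.72 as each line was left out, and the calls over all genes ran from 0 to 551, which was reached without the ESC array.

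On day 2 the MEK inhibitor, GSK inhibitor and A83-01 were each added to bFGF. Against the bFGF array, the MEK inhibitor array had a median of 0.09 (0.06 for all genes), with 44 members higher and 10 lower, and 0 of 54 were 2-fold apart, where 9.99% of all genes were. Its highest members were Ndufb6 (0.35), Ndufv3 (0.34) and Ndufa11 (0.33), and its lowest were Ndufs7, a core subunit that carries the last iron-sulfur cluster before ubiquinone (-0.30), Ndufs1 (-0.18) and Ndufa10 (-0.09). The GSK inhibitor array had a median of 0.28 (0.15 for all genes), with 45 higher and 9 lower, and 0 of 54 were 2-fold apart, where 18.6% of all genes were. Uqcrfs1 (4.46 with bFGF and 5.23 with the GSK inhibitor, 0.77), Uqcrb (4.38 and 5.07, 0.69) and Cox7c (4.89 and 5.49, 0.60) were highest, and Ndufa10 (-0.25), Ndufs7 (-0.09) and Ndufs5 (-0.08) lowest. With A83-01 the median was 0.00 (0.05 for all genes), with 29 higher and 25 lower, and 0 of 54 were 2-fold apart, where 13.1% of all genes were. Here Ndufb6 (0.41), Cox8a (0.37) and Ndufa1 (0.36) were highest and Ndufs7 (-0.46), Cox7c (-0.28) and Uqcrb (-0.26) lowest. After quantile normalization the splits were 26 higher and 28 lower with the MEK inhibitor, 30 and 24 with the GSK inhibitor, and 23 and 31 with A83-01. The fibroblast markers summed to 8.31 with bFGF, 7.18 with the MEK inhibitor, 5.59 with the GSK inhibitor and 6.77 with A83-01, and their part in these differences was not tested.

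These 3 arrays share slide 6, so they were also set against each other. The GSK inhibitor minus the MEK inhibitor gave a median of 0.14 (0.05 for all genes), with 45 higher and 9 lower (28 and 26 after quantile normalization), and 0 members were 2-fold apart, where 9.39% of all genes were. Ndufc2 (0.60), Uqcrfs1 (0.59) and Cox7c (0.58) were again among the highest, and Cox8a (-0.17), Ndufa10 (-0.16) and Uqcr10 (-0.16) lowest. A83-01 minus the MEK inhibitor gave -0.08 (-0.02 for all genes), with 16 higher and 38 lower (23 and 31), and 0 members were 2-fold apart, where 9.44% of all genes were. Uqcrh (0.18), Cox6b1 (0.15) and Ndufa1 (0.12) were highest and Ndufv3 (-0.40), Uqcrb (-0.39) and Cox5a (-0.31) lowest. The combined 2i and A83-01 array minus bFGF, on slide 2, gave 0.06 (0.00 for all genes), with 42 higher and 12 lower (40 and 14 after quantile normalization), and 0 members 2-fold apart, where 4.2% of all genes were. Ndufv3 (0.31), Ndufa1 (0.29) and Ndufb2 (0.27) were highest and Ndufs8 (-0.19), Ndufa10 (-0.13) and Ndufv1 (-0.09) lowest.

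4OHT came with the highest members of the day 2 cultures. Against bFGF alone the median was 0.81 (0.43 for all genes), 53 of 54 members were higher, and 16 were at least 2-fold higher, where 28.2% of all genes were. Uqcrb (4.38 with bFGF and 5.83 with 4OHT, 1.44), Cox7c (4.89 and 6.30, 1.41) and Uqcrfs1 (4.46 and 5.78, 1.32) were highest, and Ndufa10 (-0.74), Ndufs1 (0.18) and Ndufb7 (0.37) lowest. With 2i and A83-01 present, 4OHT gave a median of 1.43 (0.73 for all genes). Here 49 members were at least 2-fold higher, where 42.6% of all genes were, and 1 was at least 2-fold lower, where 15.7% were. Ndufb4 (5.30 and 7.58, 2.28), Cox7c (5.13 and 7.30, 2.17) and Ndufa11 (3.40 and 5.50, 2.10) were highest, and Ndufa10 (2.84 and 1.29, -1.55), Ndufs1 (0.19) and Cox8a (0.92) lowest. Between the 2 arrays of slide 7, 2i and A83-01 with 4OHT minus 4OHT gave 0.70 (0.30 for all genes), and 1 member was at least 2-fold higher, where 9.59% of all genes were. That was Ndufb4 (6.53 and 7.58, 1.04), followed by Cox7c (1.00) and Ndufb8 (0.94), with Ndufa10 (-0.94), Ndufs1 (0.05) and Uqcrc1 (0.44) lowest.

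The size of these 4OHT differences rested on the scaling, and the direction of some rested on it as well. After quantile normalization the 3 medians above became 0.09, 0.13 and 0.10, with 33, 32 and 40 members higher and 21, 22 and 14 lower. With normexp background correction the 2i, A83-01 and 4OHT array lay below its 2i and A83-01 counterpart by -0.92 and below the 4OHT array by -1.48, with 54 of 54 members lower in each. Under normexp 4OHT minus bFGF kept its direction, with a median of 0.57 and 52 members higher and 2 lower. The 75th percentiles were 674 with bFGF, 555 with 2i and A83-01, 242 with 4OHT and 120 with all of them, and the fibroblast markers summed to 3.45 with 4OHT and 1.98 with 2i, A83-01 and 4OHT. Their part in the result was not tested. Both 4OHT arrays lay on slide 7 and no other array did, so 4OHT and slide 7 cannot be told apart.

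An additive fit of the 4 day 2 additions over 7 arrays was tested with limma. The median effects of the members were 0.09 for the MEK inhibitor, 0.26 for the GSK inhibitor, 0.01 for A83-01 and 1.03 for 4OHT, beside 0.03, 0.08, -0.01 and 0.57 for all genes. No member passed an adjusted p of 0.05 for any of the 4 additions, and 0 of 19196 genes did (0% for each of the 4), while 628, 922, 711 and 8982 genes had an unadjusted p under 0.05. For 4OHT, 53 of the 61 tested members were among the last, and the smallest adjusted p was 0.0512, shared by Cox7b2 (1.91 ± 0.29, SE), Cox7c (1.74 ± 0.29) and Uqcrb (1.61 ± 0.28), by limma with Benjamini-Hochberg adjustment. Since that lies just above 0.05, other settings turned the call, over all genes as well as for members. With no filter on dim genes 42 members passed, and 15772 of 28073 genes did. With the mean of all probes 15 members and 4112 of 19205 genes passed, and with normexp 3 members and 8770 of 19196 genes. Ndufa10 had the lowest effect of 4OHT at -1.06 ± 0.30.

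**Figure D4:**
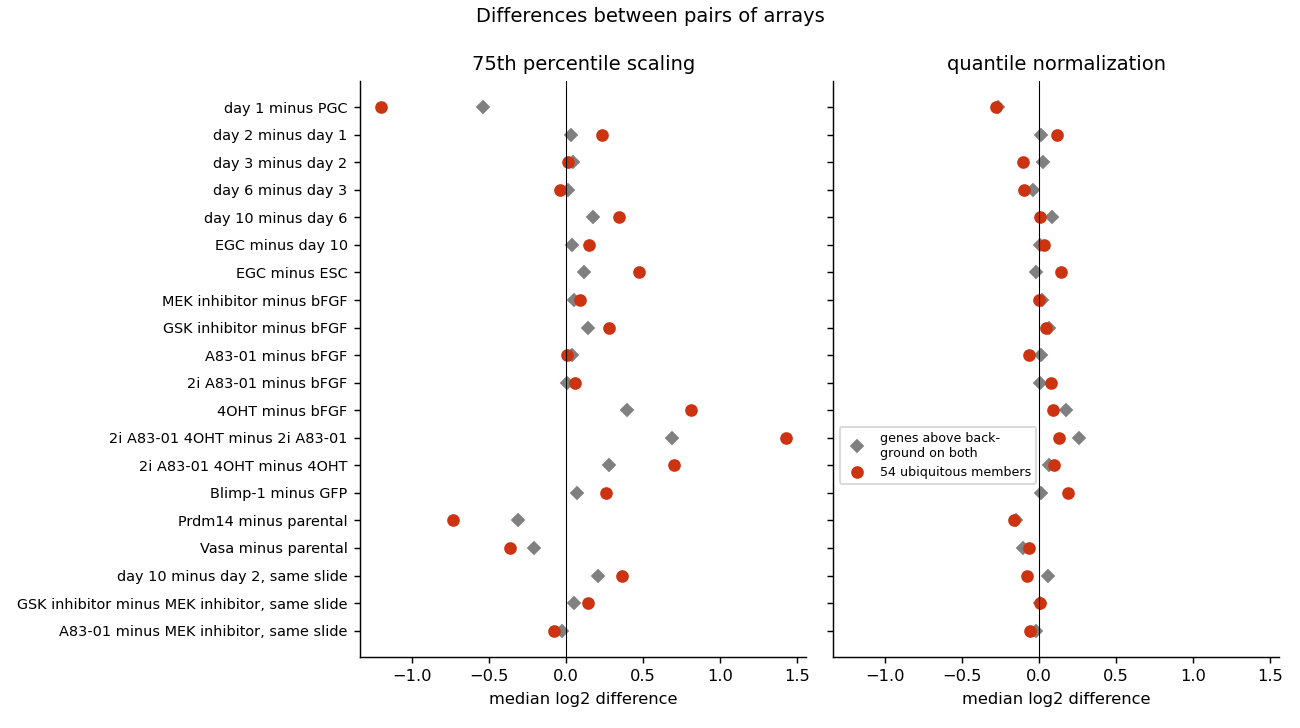
Median log2 difference of the 54 ubiquitous members beside that of genes well above background on both arrays, for each of the 20 differences between pairs of arrays, under 75th percentile scaling (left) and quantile normalization (right). The members' medians run from -1.21 to 1.43 on the left, and from -0.28 to 0.19 on the right.

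In EBRTcH3 cells forced to express Prdm14, the median member lay below the parental cells on slide 8 by -0.74 (-0.29 for all genes), with 51 of 54 lower, or 37 lower and 17 higher after quantile normalization. At least 2-fold lower were 13 members, where 17% of all genes were. Ndufv1, the flavoprotein that takes electrons from NADH (6.99 in parental cells and 5.70 with Prdm14, -1.29) and Cox6a1 (9.41 and 8.25, -1.16) were among the lowest, and Ndufa10 (2.35 and 3.12, 0.76), Ndufv3 (0.07) and Uqcr10 (0.01) highest. Cytochrome c and c1 genes had a median of 0.42 in the same comparison, with 2 of 3 higher, and the cytosolic ribosome had -1.20. With Vasa the median was -0.37 (-0.24 for all genes), with 47 lower and 7 higher, or 32 lower and 22 higher after quantile normalization. There, 1 member was at least 2-fold lower, where 10.2% of all genes were: Ndufb9 (7.78 and 6.67, -1.11), followed by Ndufv1 (-0.94) and Ndufa7 (-0.93). Ndufa10 (0.57), Ndufa5 (0.45) and Ndufb3 (0.23) were highest with Vasa. Blimp-1 minus GFP on slide 10 gave 0.26 (0.12 for all genes), with 48 higher and 6 lower (45 and 9 after quantile normalization, 38 and 16 with normexp), and 0 of 54 were 2-fold apart, where 16.4% of all genes were. Ndufv3 (0.69), Uqcrc1 (0.56) and Ndufb11 (0.54) were highest and Ndufa10 (-0.95), Ndufs1 (-0.12) and Ndufb3 (-0.12) lowest.

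For the constructs, limma compared each array in turn with its slide neighbours, with slide as a block. No member of the 61 tested passed for any construct. Over 19420 genes 0 passed for Prdm14, Vasa, Nanos2, Nanos3 and Blimp-1 (0% each), with 1198, 531, 567, 1753 and 948 genes at an unadjusted p under 0.05, and 2 passed for Dnd (0.0103%), neither of them in a list used here. The members' medians were -0.54 for Prdm14, 0.03 for Vasa, 0.24 for Nanos2, -0.40 for Nanos3, 0.17 for Dnd and 0.26 for Blimp-1. At an unadjusted p under 0.05 stood 3 of the 61 tested with Prdm14 and 3 with Nanos3. With Prdm14 these included Cox8c (2.10 ± 0.77, SE) and Ndufb11 (-1.02 ± 0.43), with an adjusted p of 0.72 by limma for both, and with Nanos3 Cox6a2 (-1.64 ± 0.61) and Ndufv3 (-1.06 ± 0.42), with adjusted p of 0.50 and 0.53. The Prdm14 median was -0.12 with quantile normalization and -0.22 without the slide block.

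Ndufa10, an accessory subunit of complex I whose fold is that of the deoxynucleoside kinases, ran against the other members in several comparisons, though not in all. Its level was 1.82 in PGCs, 2.88 on day 1, 2.84 on day 2, 3.00 on day 3, 3.09 on day 6, 3.25 on day 10, 3.59 in EGCs and 3.39 in ESCs. It was 2.96 on day 2 with bFGF alone, 2.23 with 4OHT and 1.29 with 2i, A83-01 and 4OHT. On the EBRTcH3 arrays it was lowest in parental cells (2.35) and highest with GFP (3.53). Low values thus stood on the PGC and 4OHT arrays, where the other members were high. From day 2 to day 10, from day 10 to EGCs and from ESCs to EGCs, Ndufa10 differed in the same direction as the members' median difference. Relative to the members' median its SD over the 22 arrays was 0.93, beside 0.50 for Ndufa2, 0.46 for Ndufs1, 0.44 for Cox7c and 0.42 for Ndufs5, and 0.17 for Ndufs4 and Ndufa11, which were steadiest. Its correlation with log2 of the array's 75th percentile was r = 0.74 over the 22 arrays, or 0.88 after quantile normalization, where that of the members' median was below 0. In raw intensity it ran from 294 with 2i, A83-01 and 4OHT to 7893 in ESCs, a ratio of 26.9. The gene has 1 probe on the array, so no other probe could be set beside it, and the cause was not tested.

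Of the tissue-type isoforms, Cox6a2, the heart and skeletal muscle form of subunit 6a, appeared when PGCs entered culture. It was not well above background in PGCs (-4.30), and was at 0.78 on day 1, at least 22.1-fold higher than the lowest measured signal of the PGC array. It then stood at 0.51 on day 2, 1.19 on day 3, -0.46 on day 6, -1.84 on day 10, -2.48 in EGCs and -3.97 in ESCs. The day 2 cultures had 0.63 with bFGF, -0.10 with the MEK inhibitor, -0.38 with the GSK inhibitor, -0.94 with A83-01 and 0.02 with 4OHT, and the array with 2i, A83-01 and 4OHT together differed from the 2i and A83-01 array by -1.51. It was not well above background in the parental, Prdm14, Nanos2 and Nanos3 EBRTcH3 cells, and at most -2.54 (Blimp-1) in the others. Values were thus high on days 1 to 3 and low in PGCs and all lines, while its ubiquitous counterpart Cox6a1 was at 8.40 in PGCs, 7.90 on day 1 and 8.45 in EGCs. The 9 heart and skeletal muscle markers summed to 1.32 in PGCs, 2.15 on day 1, 1.44 on day 2 and 2.87 on day 3, with 3, 5, 2 and 2 of 9 well above background, and the fibroblast markers moved as given above. Their part in the result was not tested.

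Cox7a1, the muscle form of subunit 7a, was lower on day 1 than in PGCs, unlike Cox6a2 but like most members. Its difference of -1.45 lay near the median of the ubiquitous members (-1.21), and its counterpart Cox7a2 went from 7.66 to 6.27. Cox7a1 was at 4.27 in PGCs, 2.82 on day 1, 2.89 on day 2, 1.42 on day 3, 2.26 on day 6, 3.35 on day 10, 3.61 in EGCs and 2.86 in ESCs. With bFGF alone it was at 2.76, with the MEK inhibitor at 2.37, with the GSK inhibitor at 2.49, with 4OHT at 3.36 and with 2i, A83-01 and 4OHT at 4.20. The A83-01 array stood apart at 0.90, -1.86 from bFGF and -1.46 from the MEK inhibitor array of the same slide. On the EBRTcH3 arrays Cox7a1 was lowest with Nanos3 (1.96) and highest with Prdm14 (3.53). Its counterpart Cox7a2 was at 6.45 with bFGF and 6.43 with A83-01. The 8 germ cell markers summed to 6.74 (log2) in PGCs, 5.86 on day 1, 5.67 on day 2, 3.63 on day 3, 4.66 on day 6, 5.43 on day 10, 4.67 in EGCs and 5.20 in ESCs. On the day 2 arrays they summed to 3.59 with A83-01, 5.33 with bFGF, 5.14 with the MEK inhibitor, 5.39 with the GSK inhibitor, 5.73 with 4OHT and 6.44 with 2i, A83-01 and 4OHT. Thus the A83-01 and day 3 arrays were the lowest of the 22 both for Cox7a1 and for the germ cell markers, although all 8 markers were well above background on them. The 5 pluripotency markers summed to 4.57 with A83-01, the lowest of the 22 arrays, beside 5.32 with bFGF, 5.38 on day 2 and 5.36 on day 3. The part of these markers in the levels of Cox7a1 and of the isoforms that follow was not tested.

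The testis forms Cox7b2 and Cox8c were highest on day 10. Cox7b2 was at -0.70 in PGCs, -2.45 on day 1, -2.01 on day 2, -2.42 on day 3, 0.26 on day 6, 1.65 on day 10, -0.45 in EGCs and -3.73 in ESCs. Day 10 was 12.7-fold above day 2 on the same slide, and EGCs were 9.67-fold above ESCs. In the day 2 cultures Cox7b2 was lowest with A83-01 (-3.05) and highest with 2i, A83-01 and 4OHT (0.30). Cox8c was at -1.81 in PGCs, -2.31 on day 1, -2.52 on day 2, -4.12 on day 3, -0.86 on day 6, 0.63 on day 10, 0.09 in EGCs and -2.04 in ESCs. Like Cox7b2 it was lowest among the day 2 cultures with A83-01 (-4.36). On the EBRTcH3 arrays it was at -3.02 in parental cells and -0.88 with Prdm14, a difference of 2.14. The control construct GFP was at -1.37, and the other constructs ran from -3.86 with Dnd to -1.35 with Blimp-1. The A83-01 effect in the additive fit was -0.85 ± 0.31 (SE) for Cox7b2, -1.02 ± 0.51 for Cox8c and -0.80 ± 0.47 for Cox7a1, and none of the 3 passed (adjusted p of 1.00 for Cox7b2 by limma). Against bFGF, the array with A83-01 but no 2i gave -1.05 for Cox7b2, -2.02 for Cox8c and -1.86 for Cox7a1. The 2i and A83-01 array, on the same slide as bFGF, gave -0.02, -0.17 and 0.13 in that order. The low values thus rest on the A83-01 array, which lay on another slide than bFGF. The ubiquitous counterparts of the testis forms, Cox7b and Cox8a, were at 5.61 and 6.53 with bFGF and at 5.59 and 6.90 with A83-01. Where both testis forms were low with A83-01, the germ cell markers were low as well (3.59, beside 5.33 with bFGF). From day 3 to day 10, as both forms went up, the germ cell markers went from 3.63 to 5.43 and the pluripotency markers from 5.36 to 7.41. The part of either in these levels was not tested.

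The testis form Cox6b2 had the narrowest range of the 5 measured isoforms, between 0.71 with A83-01 and 2.69 with Blimp-1, and was at 1.55 in PGCs, 1.16 on day 1, 1.95 on day 2, 0.74 on day 3, 0.96 on day 6, 1.96 on day 10, 2.57 in EGCs and 1.59 in ESCs. Cox4i2, the lung and low-oxygen form, and Cox8b, a muscle form, were well above background on 0 of the 22 arrays. Outside complex IV, Cyct, the testis form of cytochrome c, was at 3.81 in PGCs, 2.04 on day 1, 1.34 on day 3, 3.86 on day 10, 3.88 in EGCs and 2.45 in ESCs, at 0.68 with A83-01 beside 2.49 with bFGF, and between -2.71 and 0.42 on the EBRTcH3 arrays. The somatic form Cycs was at 5.88 in PGCs, 5.07 on day 1, 5.64 on day 10 and 5.55 in EGCs.

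**Figure D5:**
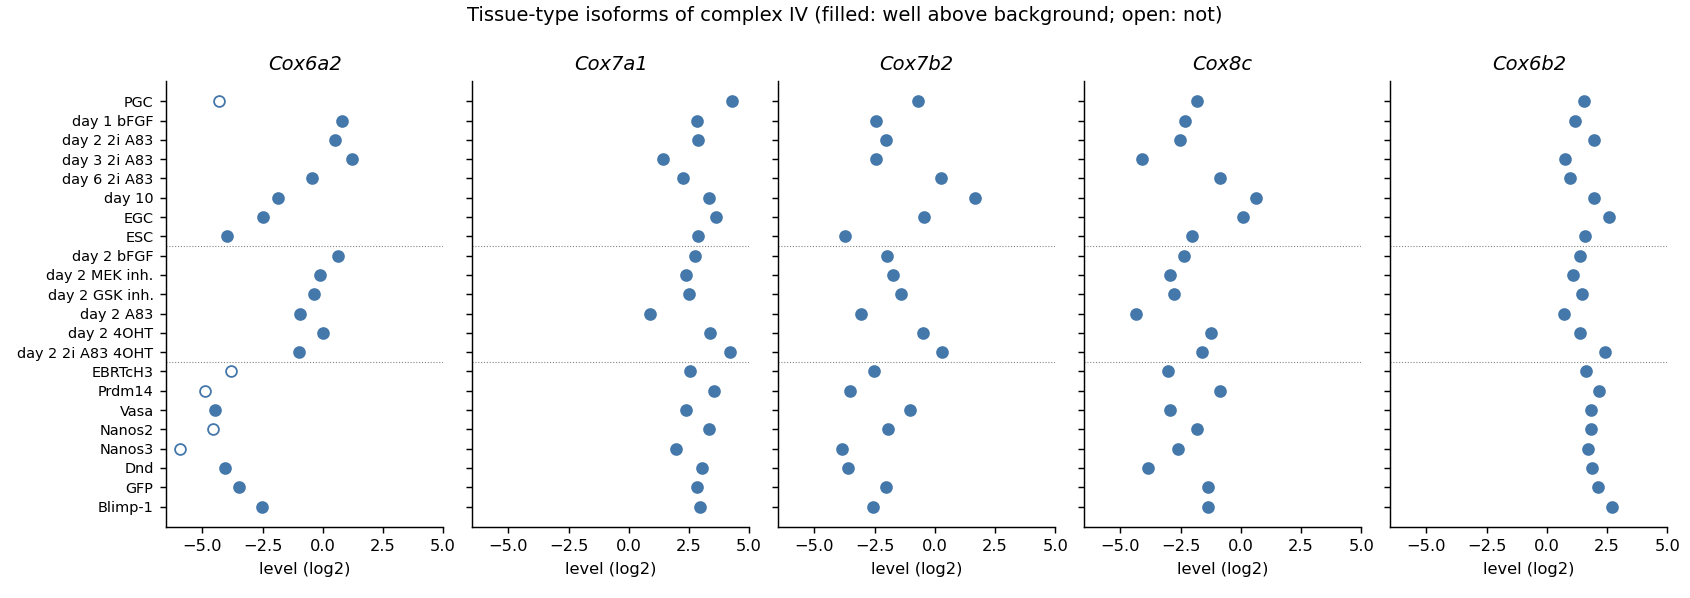
Levels of the tissue-type isoforms of complex IV on each of the 22 arrays (log2 of intensity over the array's 75th percentile), 1 panel for each of the 5 isoforms measured and 1 point per array; open symbols are arrays where the gene was not well above background. Cox6a2 goes from -4.30 in PGCs to 0.78 on day 1, Cox7b2 and Cox8c reach 1.65 and 0.63 on day 10, and Cox7a1 is lowest with A83-01 (0.90).

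Of the genes read apart, Cox7a2l ran between 3.97 on day 1 and 6.03 in parental EBRTcH3 cells, and its difference of -1.41 with Prdm14 was the lowest in the 20 comparisons. Cox4nb ran between 2.78 on day 2 and 5.12 with 2i, A83-01 and 4OHT. Its second probe did not follow the first (r = -0.46 over 22 arrays), and is 1 of 22 probes that do not stand for their gene. Ndufv3 had probes that followed its brightest one at r = 0.21 and 0.54, and Ndufa12 had one at 0.74 and another at 0.97. The second probes of Ndufb8 (r = -0.23) and Uqcrq (r = 0.70) were well above background on all 22 arrays too, and that of Ndufc1 (r = 0.43) was so on 19. The values of Ndufv3, Ndufb8, Uqcrq and Ndufc1 thus hold for their brightest probe. These correlations describe 22 arrays and have no p.

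Genes that act on the chain without being part of it were read as lists. Among 15 regulators of mitochondrial biogenesis the median difference at the day 1 step was -0.20, beside -0.53 for all genes, with 6 higher and 9 lower. Tfam, which packages and transcribes mitochondrial DNA, was at 8.95 in PGCs, 6.27 on day 1, 6.96 in EGCs, 5.78 in ESCs, 6.23 on day 2 with bFGF, 8.65 with 4OHT and 9.78 with 2i, A83-01 and 4OHT. Of the coactivators that drive mitochondrial genes, Ppargc1a was at -1.57 in PGCs, -0.71 on day 1, -4.24 on day 10 and -4.49 in EGCs, and Ppargc1b at -4.28, -1.33, -0.13 and 0.56. With 4OHT against bFGF the regulators had a median of 0.14, beside 0.43 for all genes, while the assembly factors of complexes I, III and IV had 0.86 with 36 of 36 higher and the mitochondrial ribosome had 0.90 with 74 of 75 higher. Among 10 hypoxia genes the median at the day 1 step was -1.02, beside -0.53 for all genes, and 5 were at least 2-fold lower and 1 higher, where 34.2% and 16.4% of all genes were. Of these genes 7 were lower, among them Ankrd37 (1.22 and -2.51) and Bnip3, a mitophagy receptor (4.45 and 1.80). The other 3 were higher: Ndrg1 (0.85 and 1.88), Vegfa, a growth factor of blood vessels (0.32 and 0.92), and P4ha1, a collagen prolyl hydroxylase (-1.14 and -0.55). No gene of these lists passed limma in any of the fits above, in which 0 to 2 genes passed in all.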

How the data were processed

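Total RNA from 22 samples was hybridised to one-colour Agilent mouse arrays, per the labels. The deposited scanner files hold intensities made by the authors with Agilent Feature Extraction 10.7.3.1, per the submitters' processing notes, and probe positions on mm9, per the file headers. For each array the processed signal was divided by its 75th percentile over gene probes, and log2 was taken. The authors' deposited value table, also of processed intensities, matched these levels within 0.0136 for all member values after the same scaling. Spots of a probe were averaged, outlier spots left out, and each gene was read from its brightest probe by mean level. Of 41174 probes, 26918 were named by accession, 5082 by symbol and 817 by synonym through RefSeq, and 8357 kept the file's name. No array had a saturated probe (0 arrays).

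A difference between 2 arrays used genes well above background on at least 1 of them, with the dim side raised to the lowest signal of any probe well above background on that array. Such differences have no test. Fits used limma 3.58.1 (lmFit and eBayes, two-sided, Benjamini-Hochberg adjustment over all genes tested, threshold 0.05) in R 4.3.3, on genes well above background on at least 1 array of the fit. Some of the fits were also tried on simulated data, and the outcome is not given here. Alternatives were quantile normalization, centring on 15910 probes detected on all arrays, normexp with an offset of 50, the authors' table, no filter, the mean of all probes, slide terms and leaving out arrays. Named genes were the 3 highest and 3 lowest ubiquitous members of each comparison, those at least 2-fold apart where there were at most 10, every isoform, and probes that disagree, except for 1 item not reported here; values of other members are shown for comparison and were chosen after they were seen. The members, lists and comparisons were chosen with earlier results of these data known. The source name of the Dnd array reads End, and its title was followed. The number of arrays limits the precision.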

Additional observations from a re-analysis of the deposited data

How the results depend on the processing

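No paired analysis was possible because each group has 1 array and the labels carry no replicate numbers. A median was taken as moved where it shifted by more than the SD of the 54 members' values, and as reversed where its sign changed although at least 90% of members had lain on 1 side. With quantile normalization these medians of the differences moved: day 1 minus PGC -0.28, day 10 minus day 6 0.0045, EGC minus ESC 0.14, GSK inhibitor 0.042, 4OHT 0.090, 2i, A83-01 and 4OHT against 2i and A83-01 0.13 and against 4OHT 0.10, Prdm14 -0.16, and day 10 minus day 2 -0.076. The fitted effects moved to 0.19 for 4OHT and -0.12 for Prdm14. With normexp the fitted effects moved to -0.26 for the MEK inhibitor and -0.31 for A83-01 and reversed to -0.13 for the GSK inhibitor and -0.12 for 4OHT. Under it 2i, A83-01 and 4OHT reversed to -0.92 against 2i and A83-01 and to -1.48 against 4OHT, as did Cox7a1 (-0.89) and Cox6b2 (-0.48) in these comparisons. The cause was not tested. The slope over the course moved to 0.18 with slide as a block and ran from -0.29 to 0.18 as arrays were left out, and the PGC effect from 0.23 to 0.72. Prdm14 moved to -0.22 without the slide block. Members past the threshold for 4OHT were 3 with normexp, 42 with no filter and 15 with the mean of all probes, and stayed at 0 in the other fits. The calls over all genes under the same settings are given below. At 1.5-fold no share of all genes was counted, so the member counts that follow cannot be set against one. Counting at 1.5-fold in place of 2-fold gave 2 members for day 2 minus day 1, 1 for day 3 minus day 2, 4 for day 6 minus day 3, 9 for day 10 minus day 6, 1 for EGC minus day 10, 22 for EGC minus ESC, 3 for the GSK inhibitor, 43 for 4OHT, 45 for 2i, A83-01 and 4OHT against 4OHT, 2 for Blimp-1, 33 for Prdm14, 11 for Vasa, 16 for day 10 minus day 2 and 2 for the GSK inhibitor against the MEK inhibitor.

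Calls over all genes moved most for 4OHT, to 8770 with normexp, 15772 with no filter and 4112 with the mean of all probes. With slide in place of 4OHT they were 629 for the MEK inhibitor, 430 for the GSK inhibitor and 511 for A83-01, and with normexp 22, 10 and 9. For the slope they were 15 with quantile normalization and 39 with no filter. For PGCs against the lines they were 69 with normexp, 82 with no filter, 551 without the ESC array and 194 without the EGC array. With quantile normalization they were 61 for Prdm14, 23 for Vasa, 57 for Nanos2, 16 for Nanos3, 106 for Dnd and 181 for Blimp-1, and without the slide block 3 for Prdm14, 31 for Nanos2, 53 for Nanos3, 68 for Dnd and 166 for Blimp-1. With normexp they were 1 for Prdm14, 4 for Nanos3 and 0 for Dnd, and with no filter 4 for Dnd. Centring on probes detected on all arrays gave 21 higher and 33 lower members for day 3 minus day 2 and 22 and 32 for A83-01, and normexp gave 32 and 22 for 2i and A83-01, 16 and 38 for Vasa, and 38 and 16 for the GSK inhibitor against the MEK inhibitor. The correlation of the members' median with brightness was -0.93 with that centring (-0.90 without the 2 farthest arrays) and -0.26 with normexp (-0.85 without them), settings chosen after seeing the data. The authors' table kept the side of every median, call count and isoform difference compared.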
